A study of Mus musculus with 35 samples.

Results

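The ancient LINE, MIR and DNA transposon repeats were followed in the RNA of mouse zygotes and early 2C embryos. They were chosen by name alone from the table of repeat counts, as every entry whose name began with L2, L3, MIR, CR1, Charlie, Tigger or URR1 or ended in _LINE. This gave 126 of the 18536 repeats in the table. They comprised 45 Charlie, 34 Tigger, 18 other LINE (names ending in _LINE), 12 L3 and CR1, 10 L2, 5 MIR and 2 URR1 entries. Each entry sums the reads of all genomic copies that carry the name, so single copies, and whether they lie in introns, UTRs or between genes, were not resolved and no coordinates are given.

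These repeats are fossils. L2, L3 and CR1 are LINEs of the CR1 lineage, and MIR is a tRNA-derived SINE that was copied by the L2 machinery. Charlie and the rodent URR1 are remnants of hAT DNA transposons, and Tigger elements descend from pogo-like DNA transposons. None of them is thought to mobilise in the mouse today, and their copies lie scattered in introns, UTRs and intergenic DNA, so reads on them are generally taken to come from longer transcripts that run through them. They were therefore used here as a readout of pervasive transcription.

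The study asked whether early removal of the broad H3K4me3 mark, by forced expression of the demethylase KDM5B, changes the transcriptome before embryonic genome activation. Total RNA was sequenced from 4 groups of C57BL/6NRj embryos with no engineered allele: water-injected controls at the zygote stage (10 samples) and the 2C stage (9 samples), and embryos given Kdm5b-yfp mRNA at about 1150 ng/µl at the zygote stage (10 samples) and the 2C stage (6 samples). Zygotes were collected 17 h after ovulation and 2C embryos 5.5 to 8 h after division. The 2C embryos grew from frozen and thawed zygotes and the zygotes did not, so stage cannot be told apart from freezing or from differences between the library sets. Each zygote sample was 1 embryo. Of the 2C samples, 6 control and 5 Kdm5b-yfp samples were single intact embryos, and the remaining 4 pooled blastomeres of 2 or 3 embryos. The labels call the samples biological replicates and name no litters or females, so p-values measure the spread between these samples.

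Levels are given as CPM, counts per 1000000 repeat counts (repeat CPM) or gene counts (gene CPM). Kdm5b reached 23585 to 187414 gene CPM in the injected samples, against 2.72 to 190 in the controls, and its row was left out of every gene total. A sample held 4131200 to 7284590 repeat counts and 8705140 to 17797400 gene counts. The 126 repeats took 58825 to 126431 of these counts per sample. Summed markers of the 2-cell stage averaged 18.1 ± 9.14 gene CPM in control zygotes (SD, n = 10) and 460 ± 215 in control 2C samples (SD, n = 9), which matches the stage labels. Of 14 markers of cumulus cells, 2 in zygotes and 3 in 2C samples averaged over 1 gene CPM, with sums of 17.5 to 30.2 by group. Control 2C replicates 2 and 3 were the least like the rest of their group, with median Spearman correlations of 0.874 and 0.888 against at least 0.917 for the other control 2C samples, and counts and sums that rest on the control 2C group are also given without them.

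Most of the signal came from a small number of entries. MIR entries held 33.4% of the members' counts, L2 28.3%, L3 and CR1 11.7%, Tigger 8.12%, URR1 7.02%, Charlie 6.98% and the other LINEs 4.43%. The entry L2 averaged 9865 counts per sample, MIRb 9360, L3 8393, MIR 6949, MIRc 5718 and MIR3 5716, and these 6 entries together held 51.9% of the members' counts. Entry lengths and copy numbers were not used, so these shares say how much of the readout each name carries and not how strongly a copy is transcribed. At the other end, 27 of the 126 averaged under 10 counts per sample. The 11 entries named after crocodilian families, which end in _Croc, _Crp or _AMi, included 8 of these 27.

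Whether RNA of the ancient repeats was more abundant in any group depended on what it was measured against. Counts of total RNA give abundance and not rates of transcription. As a share of all repeat counts, the summed members lay between 16213 and 20771 repeat CPM in control zygotes, with a median of 18411. Kdm5b-yfp zygotes lay between 15316 and 19587, with a median of 18063. These 2 groups of zygotes overlapped almost fully. Control 2C samples lay between 11995 and 17622, with a median of 13113. Kdm5b-yfp 2C samples lay between 12289 and 16874, with a median of 14998. The 2C groups overlapped as well, and most 2C samples sat below the zygotes. The mean share was 0.734 times as high in control 2C as in control zygotes, and 0.756 times without control 2C replicates 2 and 3.

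Other classes of repeat also differed in share between the stages. RNA gene repeats, which are copies of tRNA, rRNA and small nuclear RNA genes, averaged 16.4% ± 1.54 of all repeat counts in control zygotes (SD, n = 10) and 23.5% ± 4.92 in control 2C samples (SD, n = 9). Simple repeats, which are short tandem motifs, averaged 17.3% ± 1.54 and 11.0% ± 1.59. Taking these and the low complexity repeats out of the total left the ratio of the members' shares at 0.734 between the control stages. TMM scaling sets samples to a common level over most repeats, and levels on that scale are given as normalised repeat CPM. Of the 3065 repeats that entered this scaling, 1904 were simple repeats, so the common level depends on a class whose own share differed between the stages. Calls with simple, low complexity and RNA gene repeats left out of the scaling are given below. TMM scaling over all tested repeats left little difference in the sum. The summed members then averaged 16036 ± 476 in control zygotes, 15972 ± 165 in Kdm5b-yfp zygotes, 16153 ± 305 in control 2C and 16750 ± 419 in Kdm5b-yfp 2C samples, normalised repeat CPM.

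Measured against gene counts, the order turned round. The summed members lay between 5187 and 7420 gene CPM in control zygotes, with a median of 6217, and between 5929 and 6745 in Kdm5b-yfp zygotes, with a median of 6248. They lay between 6733 and 8254 in control 2C, with a median of 7300, and between 7787 and 8336 in Kdm5b-yfp 2C samples, with a median of 8127. Every Kdm5b-yfp 2C sample was above every Kdm5b-yfp zygote on this scale, while the 2 control groups overlapped. The ratio of group means was 1.18 between the control stages, or 1.21 without control 2C replicates 2 and 3, and 1.29 between the Kdm5b-yfp stages. All repeats together moved the same way, from 34.5 ± 3.20 counts per 100 gene counts in control zygotes (SD, n = 10) to 56.2 ± 7.43 in control 2C samples (SD, n = 9). Counts are relative within a library, so a gain in the repeats and a loss of the other RNA of the embryo, or fewer cells and less RNA per cell, cannot be told apart. Sums over the members were not tested.

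**Figure D1:**
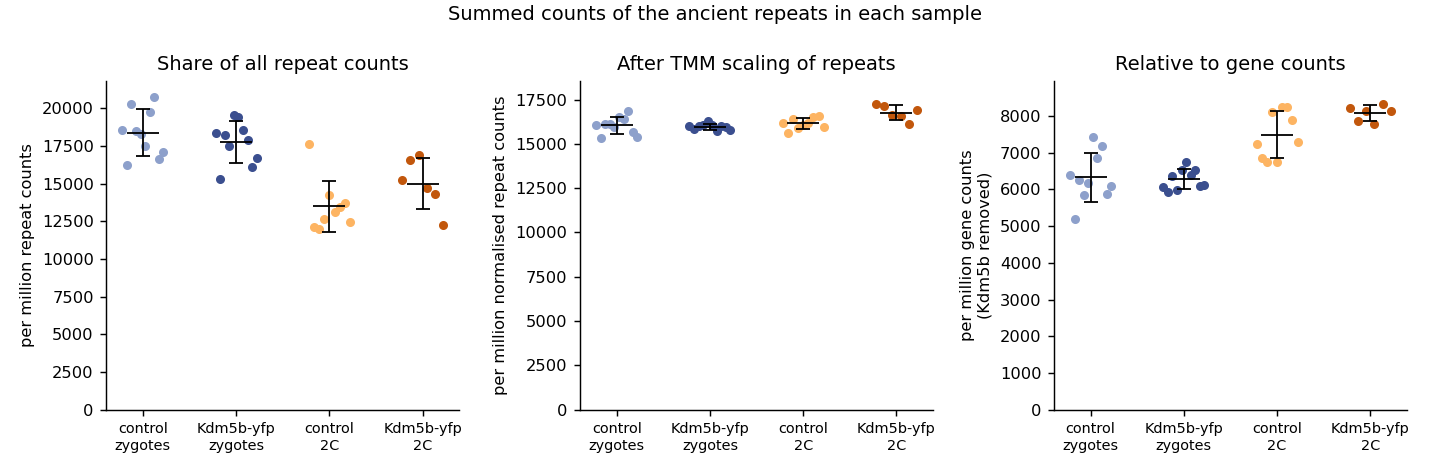
Summed counts of the 126 ancient repeats in each sample (points) with group means and SD (bars), repeat CPM (left), normalised repeat CPM after TMM scaling (middle) and gene CPM without Kdm5b (right). The 2C medians are below those of the zygotes on the left (13113 against 18411 in the controls) and above them on the right (7300 against 6217), with overlapping control ranges. In the middle the control groups are level, and the mean is 16750 in Kdm5b-yfp 2C samples against 15972 in Kdm5b-yfp zygotes.

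For single repeats, each comparison was therefore fitted under both scalings, by repeat counts and by gene counts, with edgeR's quasi-likelihood test over all repeats that passed the filter and Benjamini-Hochberg adjustment. A repeat was called at an adjusted p under 0.05. Of the 126 members, 107 passed the filter in at least 1 comparison, 94 in all 4, and 19 in none. Members tested between the control stages had a median of 130 counts per sample, against 104 for all repeats tested.

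Injection of Kdm5b-yfp mRNA left no ancient repeat called in zygotes. Of 97 members tested, 0 were called higher and 0 lower under either scaling, and 0% of the 2616 repeats tested were called in either direction. DESeq2's Wald test called 0 members as well. At an unadjusted p under 0.05 there were 5 members under repeat scaling, or 5.15%, against 5.35% of all repeats. Under gene scaling there were 3 at that threshold, or 3.09%, against 5.28% of all repeats. The median log2 fold change of the members was -0.01, as it was for all repeats.

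The intervals were narrow for the abundant entries. L2 lay between 1745 and 1898 normalised repeat CPM in control zygotes, with a median of 1815, and between 1734 and 1904 in Kdm5b-yfp zygotes, with a median of 1810. The ranges were nearly the same, and the log2 fold change was -0.02 with a 95% interval of -0.10 to 0.06. MIRb had a log2 fold change of 0.01 with an interval of -0.08 to 0.09. The smallest p among the members was that of Tigger12, a pogo-like element, which had a median of 31.5 in control zygotes and 39.2 in Kdm5b-yfp zygotes normalised repeat CPM, in overlapping ranges. Its log2 fold change was 0.38 ± 0.17 (SE, adjusted p = 0.857). Under gene scaling the smallest p was that of Tigger16a, at 0.17 ± 0.08 (SE, adjusted p = 0.879).

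In 2C embryos the members' fold changes leaned to the positive side without any call. Of 102 members tested, 0 were called higher and 0 lower by edgeR under repeat scaling, against 0% of the 2692 repeats tested, and DESeq2's Wald test called 0. Under gene scaling, 0 members were called in either direction by both tools, against 0.0371% of all repeats called higher and 0% lower. The median log2 fold change was 0.06 under repeat scaling, against -0.00 for all repeats, and 0.16 under gene scaling, against 0.10 for all repeats. Of the 2692 repeats tested, 1603 were simple repeats, with medians of -0.07 and 0.04 under repeat and gene scaling. LINE-1 entries had medians of 0.07 and 0.17, rodent SINEs 0.10 and 0.20, and MERVL and MaLR elements 0.05 and 0.15. The lean was therefore not particular to the ancient repeats. At an unadjusted p under 0.05 there were 3 members under repeat scaling, or 2.94% of those tested against 6.61% of all repeats, and 10 under gene scaling, or 9.80% against 7.50%.

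MIRb, a tRNA-derived SINE and the most counted MIR entry, lay between 1509 and 1748 normalised repeat CPM in control 2C, with a median of 1645. In Kdm5b-yfp 2C samples it lay between 1693 and 1878, with a median of 1805. The ranges overlapped in part, and the log2 fold change was 0.14 with a 95% interval of -0.00 to 0.29 (adjusted p = 0.763). L2 had a log2 fold change of 0.04 with an interval of -0.11 to 0.20. Under gene scaling the ranges of both entries were apart between the groups, and the log2 fold changes were 0.24 (0.06 to 0.43, adjusted p = 0.615) for MIRb and 0.15 (-0.02 to 0.31, adjusted p = 0.669) for L2, with neither called. The smallest p was that of Charlie4a, a hAT remnant, which lay between 6.37 and 22.9 in control 2C, with a median of 14.0, and between 19.0 and 36.9 in Kdm5b-yfp 2C samples, with a median of 24.7. Its log2 fold change was 0.88 ± 0.28 (SE, adjusted p = 0.463) under repeat scaling and 0.98 ± 0.28 (SE, adjusted p = 0.455) under gene scaling. Charlie4a was called only when all 4 groups were fitted together, where its log2 fold change was 0.87 (adjusted p = 0.0291) under repeat scaling.

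The libraries of the 2C groups were not spread evenly over the index numbers in the labels. Taken in runs of 8, 1 run held 3 control and 5 Kdm5b-yfp 2C samples and the next held 6 control and 1 Kdm5b-yfp sample. Within the former run 0 members were called under either scaling, and the log2 ratio of the summed members was 0.12 per repeat count and 0.21 per gene count, against 0.15 and 0.11 over all 2C samples. The latter run held too few Kdm5b-yfp samples for a value. Without control 2C replicates 2 and 3, 0 members were called.

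**Figure D2:**
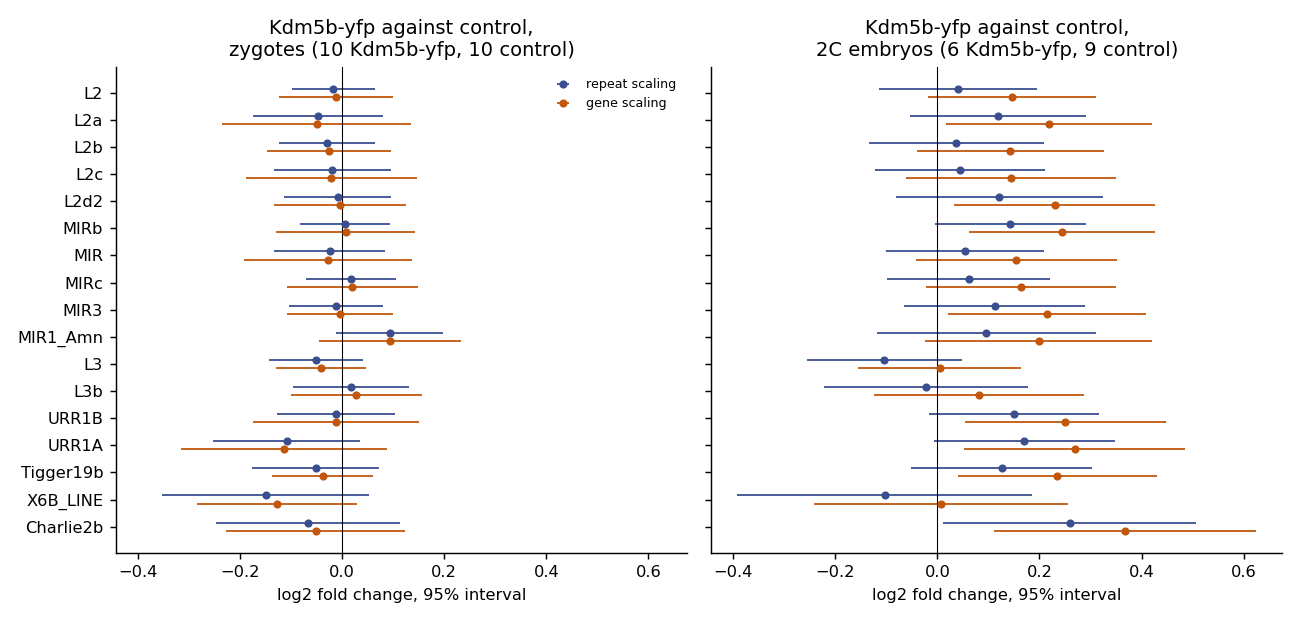
Log2 fold change of Kdm5b-yfp against control with its 95% interval for 17 well counted ancient repeats, in zygotes (left) and 2C embryos (right), under repeat scaling (blue) and gene scaling (orange). In zygotes all intervals span 0, as that of L2 does from -0.10 to 0.06. In 2C embryos the gene-scaled values lie to the right of the repeat-scaled ones, and those of L2a, L2d2, MIRb, MIR3, URR1B, URR1A, Tigger19b and Charlie2b have intervals above 0, as has Charlie2b under repeat scaling (0.01 to 0.51), before any adjustment and with none called.

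The difference between the stages in the response to Kdm5b-yfp was tested as an interaction in a fit of all 4 groups. It called 0 of 112 members under both scalings, against 0% of the 3065 repeats tested. At an unadjusted p under 0.05 there were 9 members under repeat scaling, or 8.04% against 6.66% of all repeats, and 12 under gene scaling, or 10.7% against 6.88%. Charlie4a had the smallest p, with a difference of 0.90 ± 0.27 on the log2 scale (SE, adjusted p = 0.374).

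Between the control stages a minority of ancient repeats changed, in both directions. Under repeat scaling, 14 of 97 members were higher in 2C embryos (14.4%, against 12.6% of all repeats tested) and 10 were lower (10.3%, against 12.9%). Over 2-fold, 4 were higher and 3 lower, against 3.91% and 5.65% of all repeats. Under gene scaling, 43 were higher (44.3%, against 32.5%) and 4 lower (4.12%, against 6.79%), and over 2-fold 11 were higher and 2 lower, against 9.56% and 3%. The members' median log2 fold change was 0.12 under repeat scaling, where all repeats had a median of 0.06, and 0.39 under gene scaling, where all repeats had a median of 0.36. Relative to all repeats, the members' median was thus 0.06 and 0.03 higher. Of the 2635 repeats tested, 1578 were simple repeats, with 7.98% higher and 15.4% lower under repeat scaling. LINE-1 entries had 32.9% higher and 5% lower, rodent SINEs 42.9% and 0%, and MERVL and MaLR elements 17.8% and 12.4%. With simple, low complexity and RNA gene repeats left out of the repeat scaling, the split of the members was 9 higher and 18 lower. The matching shares over all repeats in that fit were not taken, so this split cannot be called particular to the members.

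Between the Kdm5b-yfp stages more members were called, again in both directions. Under repeat scaling, 33 of 104 members were higher in 2C embryos (31.7%, against 20.1% of all repeats) and 12 lower (11.5%, against 20.9%). Over 2-fold, 10 were higher and 4 lower, against 5.26% and 8.72%. Under gene scaling, 59 were higher (56.7%, against 45.4%) and 4 lower (3.85%, against 10.8%), with 22 and 1 over 2-fold, against 15% and 4.12%. The medians were 0.12 against 0.04 for all repeats under repeat scaling, and 0.53 against 0.45 under gene scaling. Of the 2740 repeats tested, 1654 were simple repeats, with 11.2% higher and 27.0% lower under repeat scaling. LINE-1 entries had 50.4% higher and 5.67% lower, rodent SINEs 82.1% and 0%, and MERVL and MaLR elements 34.1% and 16.3%. The larger share of higher calls than over all repeats was therefore not particular to the members. Leaving simple, low complexity and RNA gene repeats out of the repeat scaling gave 21 members higher and 23 lower, again without the matching shares over all repeats.

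The L2 family, the autonomous LINEs, and MIR, the SINEs that used their machinery, moved little under repeat scaling, which includes TMM. Before TMM, the L2 entries averaged 5127 ± 455 repeat CPM in control zygotes (SD, n = 10) and 3896 ± 438 in control 2C (SD, n = 9). The MIR entries averaged 6202 ± 675 and 4363 ± 638 in the same groups, so both families were lower in 2C as a share of all repeat counts. Of 8 L2 entries tested between the control stages, 1 was higher and 1 lower, with a median log2 fold change of 0.09, and of 5 MIR entries 0 were higher and 1 lower, with a median of -0.02. Between the Kdm5b-yfp stages, 3 L2 entries were higher and 1 lower, and 1 MIR entry was higher and 1 lower. Under gene scaling, 6 L2 entries were higher and 1 lower in both comparisons, and 3 and then 5 of the 5 MIR entries were higher, so whether most of these entries were called rested on the denominator. L2 itself had log2 fold changes between the control stages of -0.02 ± 0.06 (SE, adjusted p = 0.818) under repeat scaling and 0.28 ± 0.07 (SE, adjusted p = 0.00277) under gene scaling.

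L2a was higher in 2C under both scalings. It lay between 652 and 1016 normalised repeat CPM in control zygotes, with a median of 820, and between 902 and 1105 in control 2C, with a median of 1021. In Kdm5b-yfp zygotes it lay between 766 and 924, with a median of 799, and in Kdm5b-yfp 2C samples between 962 and 1223, with a median of 1088. The control ranges overlapped and the Kdm5b-yfp ranges did not. The log2 fold changes were 0.29 ± 0.08 (SE, adjusted p = 0.00459) and 0.44 ± 0.06 (SE, adjusted p = 6.17e-06) under repeat scaling.

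L2-2_Mam went the other way. It lay between 105 and 153 normalised repeat CPM in control zygotes, with a median of 133, and between 49.5 and 81.8 in control 2C, with a median of 64.1. In Kdm5b-yfp zygotes it lay between 108.3 and 153.4, with a median of 130, and in Kdm5b-yfp 2C samples between 45.0 and 88.2, with a median of 62.2. All 2C samples were below all zygotes. The log2 fold changes were -0.97 ± 0.11 (SE, adjusted p = 2.45e-07) between the control stages and -1.02 ± 0.13 (SE, adjusted p = 9.41e-07) between the Kdm5b-yfp stages, and they were -0.65 and -0.62 under gene scaling, both called.

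MIR3, which had 1126 as its median in control zygotes and 913 in control 2C normalised repeat CPM, showed how the scaling could decide a sign. Its log2 fold change between the control stages was -0.30 ± 0.07 (SE, adjusted p = 0.00160) under repeat scaling and 0.01 under gene scaling, not called. Between the Kdm5b-yfp stages it was called lower under repeat scaling, at -0.20 ± 0.06 (SE, adjusted p = 0.00765), and higher under gene scaling, at 0.21 ± 0.06 (SE, adjusted p = 0.00369). L3 was the other entry called in opposite directions there.

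In the L3 and CR1 family, 2 of 5 entries were higher and 1 lower between the control stages under repeat scaling, and 1 of 7 higher and 2 lower between the Kdm5b-yfp stages. L3b, a CR1-lineage LINE, lay between 237 and 308 normalised repeat CPM in control zygotes and between 178 and 227 in control 2C, without overlap, with medians of 269 and 190. Its log2 fold change was -0.44 ± 0.08 (SE, adjusted p = 0.000145), and -0.50 ± 0.07 (SE, adjusted p = 2.60e-06) between the Kdm5b-yfp stages, but -0.13 and -0.10 under gene scaling, neither of them called. CR1_Mam was higher in 2C by 0.71 ± 0.19 (SE, adjusted p = 0.00753) and 0.56 ± 0.14 (SE, adjusted p = 0.00189) on the log2 scale under repeat scaling, and was called higher under gene scaling too. CR1-L3A_Croc, an entry named after a crocodilian family, was higher between the control stages by 0.42 ± 0.13 (SE, adjusted p = 0.0147) and had a log2 fold change of -0.02 between the Kdm5b-yfp stages. The interaction for it was -0.44 ± 0.17 (SE, adjusted p = 0.506) and was not called.

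Among the other LINEs, 2 of 14 entries were higher and 3 lower between the control stages under repeat scaling, and 7 were higher and 1 lower under gene scaling. X7C_LINE showed the largest rise of any member between the control stages under either scaling. It lay between 4.02 and 15.4 normalised repeat CPM in control zygotes, with a median of 8.29, and between 30.2 and 87.7 in control 2C, with a median of 51.1. In Kdm5b-yfp zygotes it lay between 6.05 and 13.1, with a median of 9.27, and in Kdm5b-yfp 2C samples between 22.8 and 62.9, with a median of 36.1. No 2C sample was as low as any zygote. The log2 fold changes were 2.59 ± 0.22 (SE, adjusted p = 5.47e-09) and 2.11 ± 0.21 (SE, adjusted p = 2.33e-08), a rise of 6.00-fold and 4.31-fold, and they were 2.90 and 2.53 under gene scaling.

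X7A_LINE fell in the same samples. Its medians were 38.5 in control zygotes and 19.4 in control 2C normalised repeat CPM, in overlapping ranges, and 36.5 and 16.4 in the Kdm5b-yfp groups. The log2 fold changes were -1.02 ± 0.23 (SE, adjusted p = 0.00156) and -1.06 ± 0.19 (SE, adjusted p = 0.000107) under repeat scaling, and -0.71 and -0.66 under gene scaling, both called. The most counted of the other LINEs, X6B_LINE, was lower by repeat scaling, at -0.40 ± 0.13 (SE, adjusted p = 0.0221) and -0.38 ± 0.10 (SE, adjusted p = 0.00454), and was not called by gene scaling in either comparison.

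The Charlie elements, the hAT remnants, were called in both directions, as were the L2, L3 and CR1 and other LINE entries. Of 37 tested between the control stages, 7 were higher and 4 lower under repeat scaling and 14 were higher and 2 lower under gene scaling. Of 40 tested between the Kdm5b-yfp stages, 12 were higher and 4 lower, and 18 and 2 under gene scaling.

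Charlie2b, the most counted of them, lay between 138 and 228 normalised repeat CPM in control zygotes, with a median of 185, and between 212 and 345 in control 2C, with a median of 309. In Kdm5b-yfp zygotes it lay between 165 and 222, with a median of 178, and in Kdm5b-yfp 2C samples between 302 and 462, with a median of 344. Only the control ranges overlapped. The log2 fold changes were 0.67 ± 0.11 (SE, adjusted p = 8.01e-05) and 0.97 ± 0.09 (SE, adjusted p = 5.33e-09) under repeat scaling, and 0.98 and 1.38 under gene scaling. Charlie11 was higher in 2C by 0.85 ± 0.13 (SE, adjusted p = 1.56e-05) between the control stages and 0.61 ± 0.14 (SE, adjusted p = 0.000817) between the Kdm5b-yfp stages. Its control medians were 50.2 and 85.8 and the control ranges did not overlap.

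Charlie6 showed the largest fall of any member in both stage comparisons under both scalings. It lay between 140 and 219 normalised repeat CPM in control zygotes, with a median of 158, and between 15.9 and 83.9 in control 2C, with a median of 45.6. In Kdm5b-yfp zygotes it lay between 138 and 206, with a median of 154, and in Kdm5b-yfp 2C samples between 19.7 and 55.9, with a median of 29.4. Every 2C sample was below every zygote, though the 2C samples varied widely among themselves. The log2 fold changes were -2.04 ± 0.26 (SE, adjusted p = 1.84e-06) and -2.34 ± 0.17 (SE, adjusted p = 2.75e-10), and -1.75 and -1.93 under gene scaling.

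**Figure D3:**
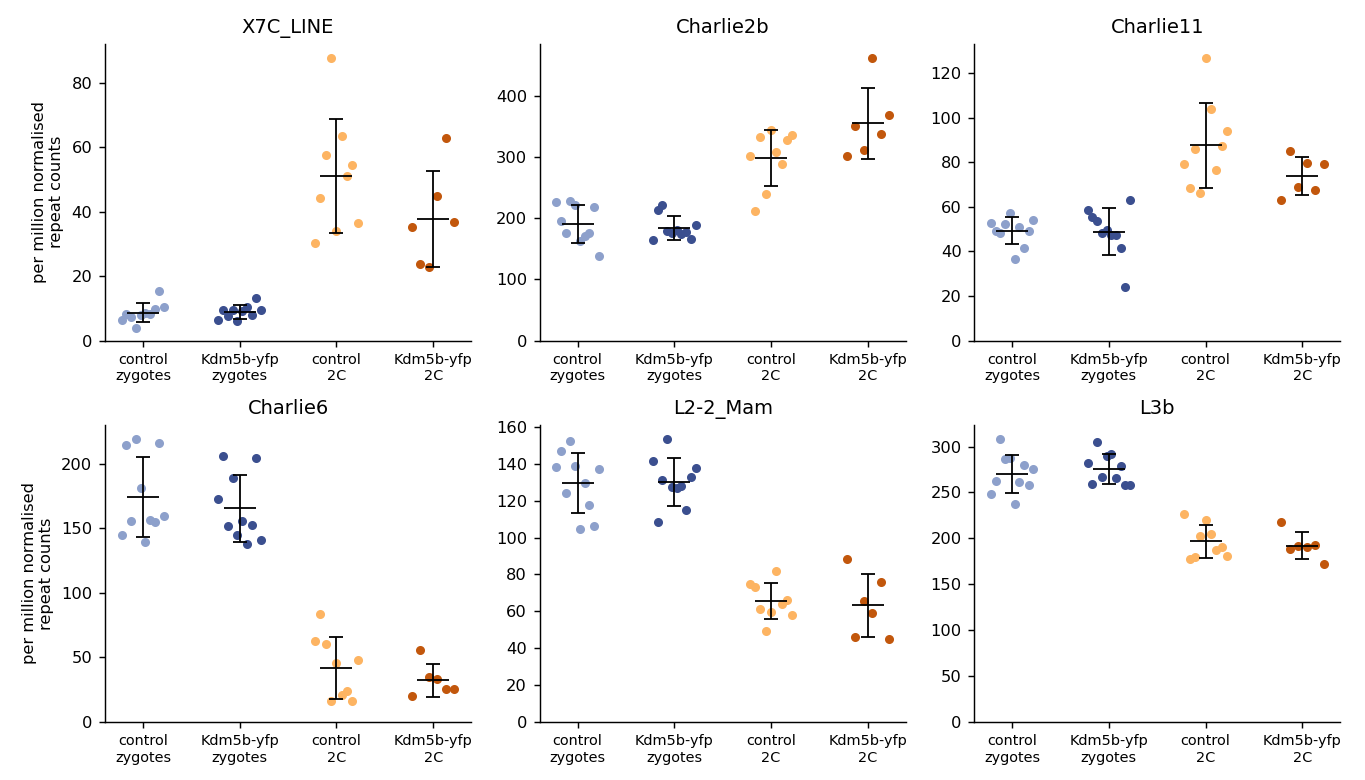
Level of 6 ancient repeats in each sample (points) in normalised repeat CPM, with group means and SD (bars). X7C_LINE, Charlie2b and Charlie11 are higher in 2C samples, as in X7C_LINE with medians of 8.29 in control zygotes and 51.1 in control 2C, and Charlie6, L2-2_Mam and L3b are lower; L3b was not called under gene scaling.

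Both URR1 entries, the rodent relatives of Charlie, were higher in 2C embryos in every stage comparison except between the control stages under repeat scaling, where neither was called. URR1A had a median of 505 normalised repeat CPM in control zygotes, 477 in Kdm5b-yfp zygotes, 581 in control 2C and 634 in Kdm5b-yfp 2C samples. The ranges of the Kdm5b-yfp groups did not overlap, while those of the control groups did. Its log2 fold changes were 0.22 ± 0.09 (SE, adjusted p = 0.0689) between the control stages and 0.48 ± 0.06 (SE, adjusted p = 8.58e-07) between the Kdm5b-yfp stages under repeat scaling.

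Of 26 Tigger elements tested between the control stages, edgeR called 2 higher and 0 lower under repeat scaling, or 7.69% and 0%, below the shares of all repeats, and 8 and 0 under gene scaling. At an unadjusted p under 0.05 there were 3 Tigger entries under repeat scaling, or 11.5% against 37.0% of all repeats, and 10 under gene scaling, or 38.5% against 47.6%. Between the Kdm5b-yfp stages, 11 of 28 were higher and 1 lower, and 17 and 0 under gene scaling. Tigger19b, the most counted, had medians of 548 in control zygotes, 545 in Kdm5b-yfp zygotes, 565 in control 2C and 631 in Kdm5b-yfp 2C samples normalised repeat CPM. All 4 ranges overlapped. Its log2 fold changes were 0.06 ± 0.08 (SE, not called) and 0.21 ± 0.06 (SE, adjusted p = 0.00362) under repeat scaling, and 0.37 and 0.63 under gene scaling, both called.

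**Figure D4:**
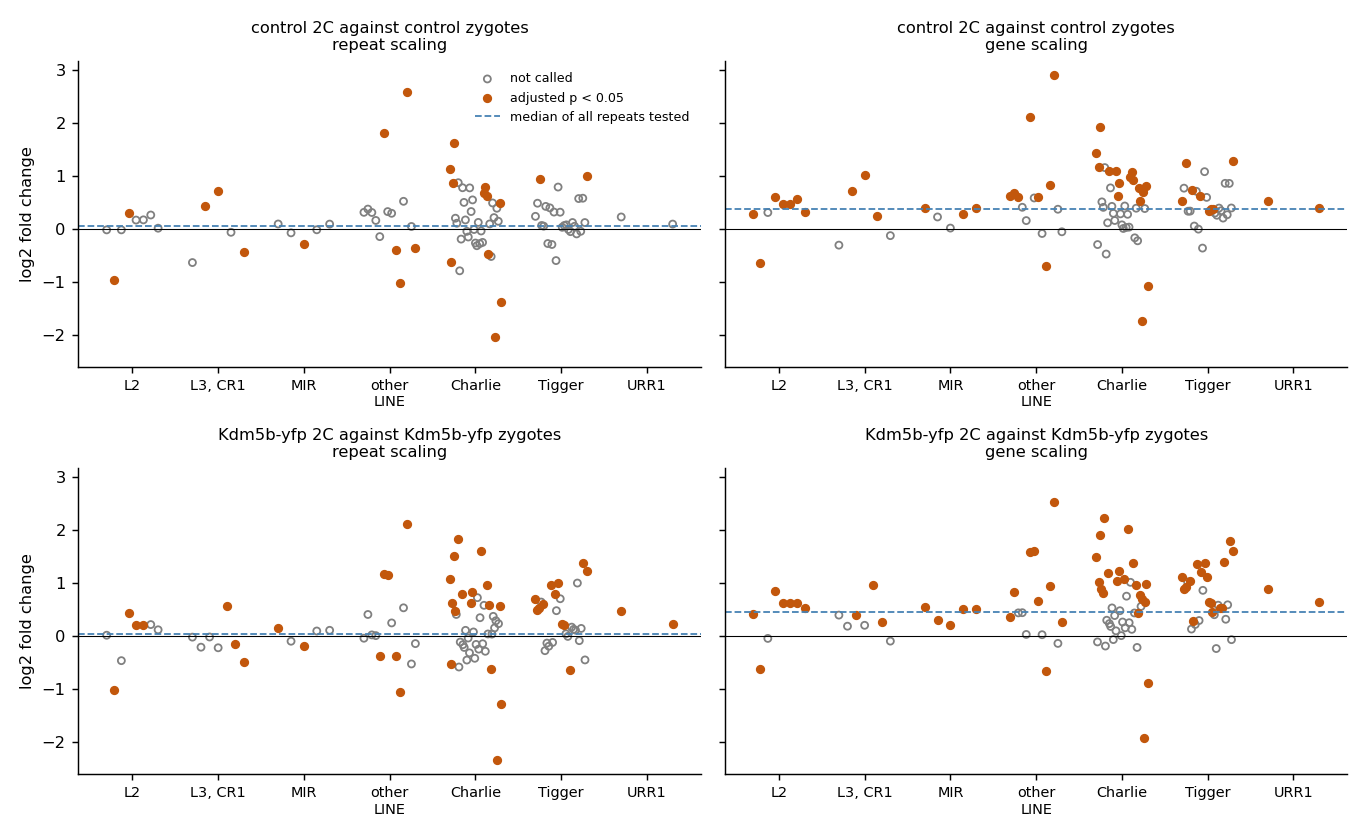
Log2 fold change of 2C against zygotes for each tested ancient repeat (points), by family, for control (top) and Kdm5b-yfp embryos (bottom), under repeat scaling (left) and gene scaling (right). Filled points have an adjusted p under 0.05, and the dashed line is the median of all repeats tested, which lies at 0.06 and 0.36 in the top row and at 0.04 and 0.45 in the bottom row.

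The 2 stage comparisons share no samples and can be set side by side. Both, however, compare 2C embryos from thawed zygotes with zygotes that were not frozen. Agreement between them therefore does not tell stage apart from freezing or from the library sets. Under repeat scaling, 21 members were called in both with the same sign, 12 higher and 9 lower, which is 21 of the 24 called between the control stages and of the 45 called between the Kdm5b-yfp stages, and 0 were called with opposite signs. Under gene scaling, 43 were called in both with the same sign, of 47 and 63, and 0 with opposite signs. The matching counts over all repeats were not taken, so this agreement cannot be called particular to the members. The smaller number of calls between the control stages is no test of a difference between the comparisons, and the interaction called 0 members. The members higher in both comparisons under both scalings were CR1_Mam, Charlie1, Charlie11, Charlie12, Charlie2b, Charlie30b, Charlie8, L2a, Tigger12, Tigger9b, X2_LINE and X7C_LINE, 12 in all. Those lower in both under both were Charlie6, Charlie9, L2-2_Mam and X7A_LINE, 4 in all. Those of them that were not named by rule were listed after their values were seen. Without control 2C replicates 2 and 3 all calls of the members named by rule between the control stages were kept, and among these the log2 fold change of Charlie6 moved most, from -2.04 to -2.37 under repeat scaling. Several of the members listed here had few counts, as X2_LINE with medians of 1.56 in control zygotes and 4.41 in control 2C normalised repeat CPM.

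Other classes of repeat were measured in the same fits. They were set by name and not by age, so LINE-1 and MaLR entries of any age are included. Between the control stages the median log2 fold change under repeat scaling was 0.30 for LINE-1, 0.20 for the rodent SINEs, 0.16 for MERVL and MaLR elements, 0.53 for RNA gene repeats and -0.07 for simple repeats, against 0.12 for the ancient repeats. Under gene scaling the values were 0.60, 0.51, 0.46, 0.86 and 0.24, against 0.39 for the ancient repeats. The order was the same between the Kdm5b-yfp stages, in which the ancient repeats had a median of 0.12 under repeat scaling and LINE-1 0.33. By these medians the ancient repeats lay above the simple repeats and below the LINE-1, rodent SINE and MERVL and MaLR classes on each scale. Differences between these classes were not tested.

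**Figure D5:**
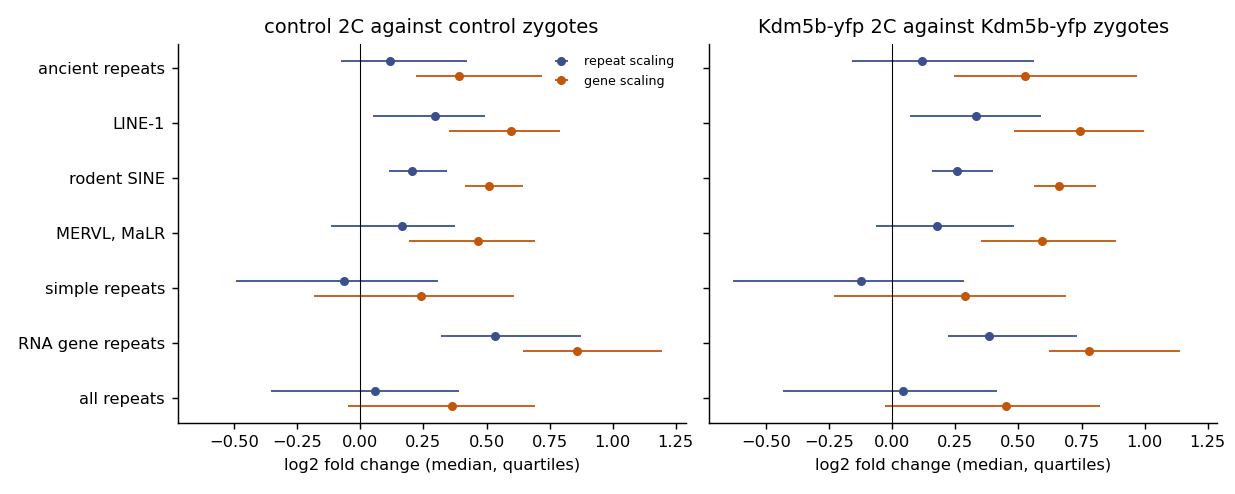
Median log2 fold change of 2C against zygotes (points) and quartiles (bars) for the tested repeats of each class, in control (left) and Kdm5b-yfp embryos (right), under repeat scaling (blue) and gene scaling (orange). The ancient repeats have medians of 0.12 and 0.39 on the left, below LINE-1 at 0.30 and 0.60 and above simple repeats at -0.07 and 0.24.

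As background to the readout, genes of nuclear RNA decay and of transcript 3' end formation were examined in the gene counts. Of 50 genes listed, 50 were tested between the control stages, and 10 were higher in 2C embryos and 21 lower (20% and 42%, against 26.8% and 25.4% of all genes). The list's median log2 fold change was -0.31, against 0.02 for all genes, and without control 2C replicates 2 and 3 there were 9 higher and 24 lower. Between the Kdm5b-yfp stages 9 were higher and 27 lower (18% and 54%, against 29.3% and 29.5%).

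Papolg, a nuclear poly(A) polymerase, fell from 130 ± 11.4 gene CPM in control zygotes (SD, n = 10) to 28.2 ± 10.2 in control 2C (SD, n = 9), a log2 fold change of -2.11 ± 0.16 (SE, adjusted p = 7.28e-11). The Integrator subunits Ints9 and Ints12, which belong to a complex that cleaves nascent RNA, fell by 1.95 and 1.10 on the log2 scale. Of the 11 Integrator subunits listed under Ints names, 5 were lower and 3 higher, the latter being Ints2, Ints3 and Ints7 (named after their values were seen). Cpsf3l, another name of Ints11, was also on the list and is not in this count. Clp1, an RNA kinase of the 3' end cleavage machinery, rose from 1.57 ± 1.26 to 16.5 ± 11.6 (SD, n = 10 and 9), a log2 fold change of 3.48 ± 0.47 (SE, adjusted p = 7.08e-07). Cstf2, a cleavage stimulation factor subunit, rose by 0.70 ± 0.12 (SE, adjusted p = 3.01e-05), while the other subunits Cstf3 and Cstf1, also named after their values were seen, had log2 fold changes of -1.39 and -0.73, both called. How these genes relate to the repeats was not tested.

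After Kdm5b-yfp injection, 0 of the 50 genes were higher and 1 lower in zygotes, against 0.0168% and 0.117% of all genes. That gene, Sympk, a scaffold of the 3' end cleavage complex, was named after its value was seen and had a log2 fold change of -0.39 ± 0.07 (SE, adjusted p = 0.0175). In 2C embryos edgeR called 0 of 49 in either direction, against 0% and 0.0245% of all genes. The list's median log2 fold change was -0.06 in zygotes, against 0.01 for all genes. In 2C embryos it was -0.21, against -0.00 for all genes. These medians were not tested.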

How the data were processed

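Total RNA from single embryos or pooled blastomeres was sequenced in 35 samples. The authors deposited counts, the fragments that featureCounts assigned to each of 24480 genes, and expected counts, which SalmonTE had estimated for 18536 repeats by alignment to all RepeatMasker instances with 25 bp of flank. The authors took Kdm5b reads out for normalisation and removed simple repeats that overlap its exons. The submitters' processing notes name fastp 0.21.0, STAR 2.7.3a, SAMtools 1.10, featureCounts 1.5.1, Salmon, FastQC, DESeq2 1.30.1 and the builds GRCm38 and mm10. Of the estimated counts, 5.04% were not whole (18.7% for the members), and all were rounded for the tests.

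The members and lists were chosen with earlier results of these data known. Except for the interaction, which used all groups, only the groups compared entered a fit. It ran in edgeR 4.0.16 (R 4.3.3) over all repeats past filterByExpr (minimum count 10), and the p-values of the quasi-likelihood test were adjusted by Benjamini and Hochberg's method. Repeat scaling used repeat totals and TMM over repeats. Gene scaling used gene totals and TMM over genes without Kdm5b. Repeats that share sequence can exchange reads in SalmonTE's estimates, so close relatives such as MIR and MIRb are uncertain. Per-sample levels used TMM factors over all 35 samples. Simple repeats were recognised by the form of their names, which differed from the form first assumed. Named repeats were the most counted of each family, all tested L2, MIR, L3, CR1 and URR1 entries, and the 3 higher and 3 lower calls with the smallest p per comparison and scaling, or the smallest p where none was called. Not all of these are printed. Named genes were the 3 higher and 3 lower with the smallest p between the control stages. 1 of them is not reported here. Alternatives were DESeq2 1.42.0, other filters and scalings, single embryos, a joint fit, a replicate block, index numbers and left-out libraries. The fits were tested on simulated data. Depth is given per sample in the results. Figures were drawn with matplotlib 3.10.9. Same-numbered samples did not deviate together, so numbers were not taken as pairs. Repeat sequences were not used here.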

Additional observations from a re-analysis of the deposited data

Results flagged for a closer look

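Control 2C replicate 1 was the highest of the control 2C samples, with a wide gap to the next, in its share of ancient repeats. Its summed members reached 17622.5 repeat CPM, where the next sample had 14239.1. The L2 entries reached 4974.85 against 3956.08, the MIR entries 5793.97 against 4557.26 and the Charlie entries 1288.3 against 1026.82. These sums overlap, since the families are part of the whole. Without this sample, 24 members were called between the control stages under repeat scaling and 41 under gene scaling, against 24 and 47 with it, and 0 were called between Kdm5b-yfp and control 2C samples. X7A_LINE had such a gap in control zygote replicate 3, at 63.8637 normalised repeat CPM against 46.3963 in the next sample. Of all the groups examined in this way 5 had such a sample, or 4.63%. All of these but that of X7A_LINE were control 2C replicate 1 in overlapping sums. The share can therefore not be set against a chance rate, and whether this sample differs by chance was not tested.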

How the results depend on the processing

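With all 4 groups in a single fit, 1 member (Charlie4a) was called between Kdm5b-yfp and control 2C samples under repeat scaling and 1 under gene scaling, against 0 in the fits of those groups alone. With a 2-fold threshold added, the calls between the control stages dropped from 24 to 7 (repeat scaling) and from 47 to 13 (gene scaling), and between the Kdm5b-yfp stages from 45 to 14 and from 63 to 23. The replicate block lowered the calls between the Kdm5b-yfp stages under repeat scaling from 45 to 29 and changed the other counts by less than 1.5 times; correlations of the deviations of same-numbered samples ran from -0.16 to 0.16, so the numbers do not pair the samples. The log2 ratio of the summed members became 0.0105 between the control stages and 0.0686 between the Kdm5b-yfp stages when repeat totals were multiplied by their TMM factors, from -0.45 and -0.24. Per gene count, keeping Kdm5b in the totals gave -0.0729 between the 2C groups, from 0.11, and 0.26 between the Kdm5b-yfp stages, from 0.36, and TMM factors gave 0.48 there. In the run of index numbers with 3 control samples the value between the 2C groups was 0.21. MIR, called higher between the Kdm5b-yfp stages at 0.14, came to -0.0324 without simple, low complexity and RNA gene repeats, since that alternative sets the scale by other repeats. Without control 2C replicates 2 and 3 (chosen after seeing the data, like the index run and the sample left out above), 28 and 54 members were called between the control stages. Of 130 alternative values of counts and ratios, 117 moved by less than 1.5 times or 1 SD. Counts were judged by their total over both directions, so this tally does not register a change of direction. Leaving simple, low complexity and RNA gene repeats out of the repeat scaling was such a change. In both stage comparisons it turned more higher than lower calls into more lower than higher. The matching shares over all repeats were not taken, so this change cannot be called particular to the members.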
